A study of Canis lupus familiaris with 124 samples.

Results

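Both cell lines grown from lymph node metastases of a canine prostate adenocarcinoma (PAC) were compared with the cell line grown from the primary tumor of the same dog. Chosen by their titles, 9 libraries were compared out of 31 in the series, namely 3 of the primary line Adcarc1511.1, 3 of Metadcarc1511.2 and 3 of Metadcarc1511.3. The question was which genes were expressed differently, in the same direction, in both metastasis lines. The dog, a neutered male Dobermann, was 6 years old, and the metastasis lines derive from its tumor samples Ln4.2 and Ln4.3. The labels name no engineered allele and no drug treatment for the 3 lines, which were grown in flasks in Medium 199 with 10% fetal calf serum. Libraries of Adcarc1511.1 came from passages 88, 94 and 95, those of Metadcarc1511.2 from passages 68, 75 and 79, and those of Metadcarc1511.3 from passages 79, 86 and 87. Each line is 1 culture of 1 dog, so adjusted p-values measure only the spread between flasks and passages of a line.

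Canine PAC is an epithelial tumor that often spreads to the draining lymph nodes. A carcinoma cell that leaves its primary site loosens its contacts with neighbouring cells and with the basement membrane, and many carcinomas shift between an epithelial state, held together by cadherins, claudins and keratins, and a mesenchymal state driven by transcription factors such as SNAI1, SNAI2, ZEB1 and TWIST1. A carcinoma cell line is grown free of most of the leukocytes, vessels and fibroblasts that surround the tumor in a lymph node.

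Each of the 9 libraries held between 15355798 and 18254344 expected counts. All 6 epithelial marker genes with an identifier (EPCAM, CLDN7, OCLN, F11R, PKP3 and LAD1) had at least 1 TPM (a level scaled to the length of the transcript and the size of the library) in all 9 libraries, and their summed level was between 1370 and 2640 TPM. Summed levels of 8 fibroblast markers were between 0.393 and 1.91 TPM, with DCN at 0, against 23700 TPM in the tissue Ln4.2 and 2780 TPM in Ln4.3. Those of 8 leukocyte markers were between 0.535 and 4.59 TPM, with TYROBP, C1QB, C1QC and SPI1 at 0, against 796 and 1310 TPM. The 6 endothelial markers summed to between 8.9 and 36.8 TPM, against 355 and 173 TPM, and among them FLT4 alone had at least 1 TPM in all 9 libraries. In both metastasis lines, replicate 1 was nearer to replicate 1 of the other line than to the later libraries of its own line. All 71 genes that passed the test between both metastasis lines in replicates 2 and 3 differed in the same direction in replicate 1.

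A total of 332 genes differed from the primary line in the same direction in both metastasis lines. A gene was called in a line where it changed by a factor of 2 or more, with an adjusted p no larger than 0.01 (edgeR's quasi-likelihood test, Benjamini-Hochberg adjustment). Of these, 203 were higher in both lines (1.64% of the 12359 genes tested) and 129 were lower in both (1.04%). Only 4 genes were called in opposite directions. By itself, Metadcarc1511.2 had 278 higher genes (2.25%) and 165 lower genes (1.34%), and Metadcarc1511.3 had 400 higher genes (3.24%) and 373 lower genes (3.02%). Both comparisons share the 3 libraries of Adcarc1511.1, so a deviation of these libraries enters both. Same-numbered libraries of both metastasis lines also deviated together (correlations of 0.818, 0.693 and 0.705). A deviation common to both metastasis lines can therefore enter both comparisons as well. The mean of both metastasis lines differed from the primary line in 845 genes (6.84%), and Metadcarc1511.3 differed from Metadcarc1511.2 in 121 genes (0.979%). In all 332 shared genes, the 6 libraries of the metastasis lines lay entirely above or entirely below the 3 libraries of the primary line, which was also the case in 20.8% of all genes tested.

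**Figure D1:**
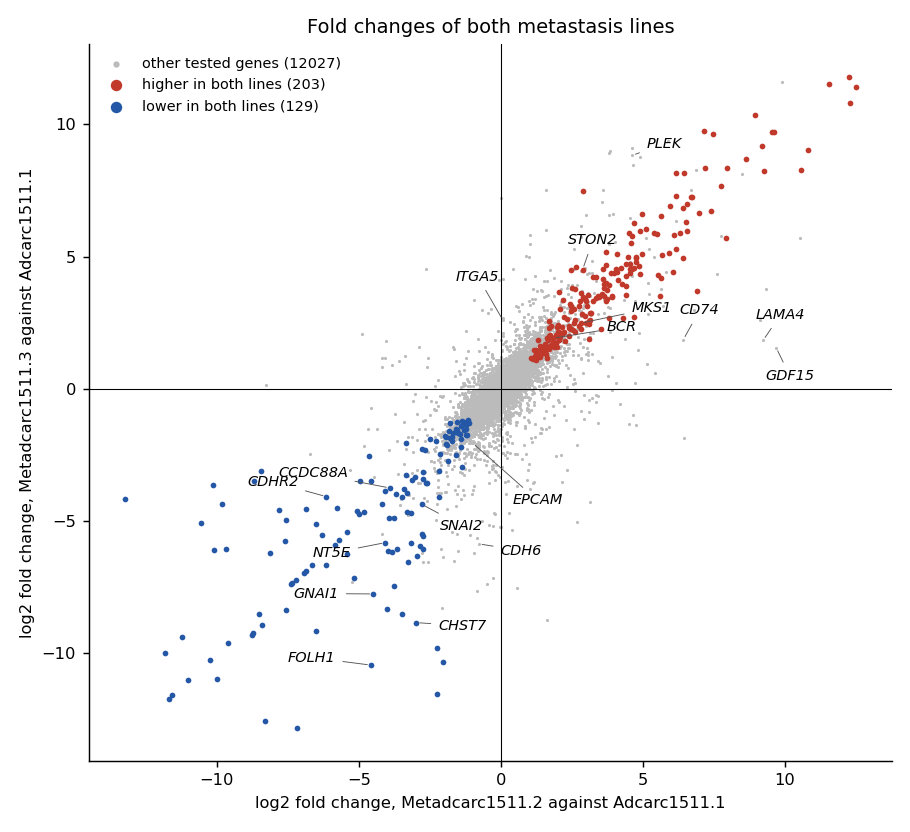
Log2 fold change of each of the 12359 genes tested in Metadcarc1511.2 (horizontal axis) and in Metadcarc1511.3 (vertical axis), each against Adcarc1511.1. The 203 genes called higher in both lines are red, the 129 called lower in both are blue and all others are grey, both axes share the primary line, and fold changes of genes at 0 in a line depend on the prior count of the model and are no measured ratios.

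The shared genes were chosen on these same libraries for a change of 2-fold or more, so that choice in part sets the sizes below. Genes higher in both lines had a median level of 0.774 TPM in Adcarc1511.1, against 9.49 TPM in Metadcarc1511.2 and 10.8 TPM in Metadcarc1511.3. Genes lower in both lines had a median of 11.9 TPM in the primary line, against 0.501 and 0.268 TPM. In the count model, 39 of the higher and 35 of the lower genes changed by more than 5 on the log2 scale in both lines, while 42 and 25 changed by less than 2 in both. The median of all genes tested was -0.003 in Metadcarc1511.2 and 0.004 in Metadcarc1511.3. Among the 332 shared genes, 17 also differed between both metastasis lines, 4 of the higher and 13 of the lower ones.

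All 6 libraries of the metastasis lines were taken at lower passages than those of Adcarc1511.1, so that passage and line cannot be told apart in full. With passage as a covariate, 52 genes were higher and 36 lower in both lines, and 65 of the 332 genes were called again. None of these 65 had a symbol. Without replicate 1 of both metastasis lines, an alternative chosen after seeing the data, 171 were higher and 91 lower, and 224 of the 332 genes were called again.

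A symbol could be assigned to 17 of the 332 shared genes, 7 of them higher and 10 lower. FES, a non-receptor tyrosine kinase, had 1.32, 1.04 and 0.887 TPM in the primary line. Its level was 4.11, 4.36 and 2.81 TPM in Metadcarc1511.2 and 4.62, 4.61 and 5.01 TPM in Metadcarc1511.3. The highest primary library thus lay below the lowest metastasis library, and the mean was 1.09 ± 0.222 TPM (SD, n = 3) against 3.76 ± 0.829 and 4.75 ± 0.229 TPM (n = 3 each). FES was 3.20-fold higher in Metadcarc1511.2 (log2 fold change 1.68 ± 0.27, SE, adjusted p = 0.0039) and 3.96-fold higher in Metadcarc1511.3 (1.99 ± 0.27, adjusted p = 0.00101). BCR, a gene known from its fusion with ABL1 in leukemia, had 6.43, 4.97 and 1.68 TPM in the primary line, so that its libraries differed more among themselves than those of the metastasis lines. All 6 metastasis line libraries of BCR were between 15.1 and 19.2 TPM, which was 3.54-fold (adjusted p = 0.00935) and 3.75-fold (adjusted p = 0.00523) higher. NAB1, a corepressor of EGR transcription factors, was between 18.7 and 33.8 TPM in the primary line and between 61.6 and 77.5 TPM in the metastasis lines. With 2.41-fold (adjusted p = 0.0079) and 2.39-fold (adjusted p = 0.00578), it had the smallest difference of the 7 higher genes with a symbol.

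STON2, an adaptor protein of clathrin-mediated endocytosis, had the largest difference of these 7. It was 1.11, 0.547 and 0.117 TPM in the primary line, 4.39, 3.75 and 5.42 TPM in Metadcarc1511.2, and 17.9, 11.7 and 13.1 TPM in Metadcarc1511.3. This was 7.33-fold (adjusted p = 0.00684) and 22.7-fold (adjusted p = 0.00047) higher. All 3 libraries of Metadcarc1511.3 were above those of Metadcarc1511.2, and this difference of 1.63 on the log2 scale had an adjusted p of 0.145 by edgeR's test, and of 0.0823 with a replicate block. MKS1, a component of the transition zone at the base of the primary cilium, was between 0.357 and 1.36 TPM in the primary line. It was 9.10, 5.46 and 3.74 TPM in Metadcarc1511.2 and 6.06, 4.53 and 4.42 TPM in Metadcarc1511.3, which was 6.99-fold (adjusted p = 0.00592) and 5.58-fold (adjusted p = 0.00725) higher. LOC609452 had between 15.5 and 29.7 TPM in the primary line, between 50.2 and 86.1 TPM in Metadcarc1511.2 and between 85.8 and 130 TPM in Metadcarc1511.3 (3.24-fold with adjusted p = 0.00545, and 4.86-fold with adjusted p = 0.000725).

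Among the 10 lower genes with a symbol, FOLH1, which encodes the prostate-specific membrane antigen targeted in the imaging and therapy of human prostate cancer, had 157, 51.8 and 58.4 TPM in the primary line. It had 2.06, 5.71 and 4.32 TPM in Metadcarc1511.2, and 0.0975, 0 and 0.105 TPM in Metadcarc1511.3. The 3 lines did not overlap. FOLH1 was 23.9-fold lower in Metadcarc1511.2 (log2 fold change -4.58 ± 0.56, adjusted p = 0.000687), and its log2 fold change in Metadcarc1511.3 was -10.46 ± 0.80 (adjusted p = 2.86e-05). The difference between both metastasis lines passed the test too (-5.88 ± 0.75, adjusted p = 0.00211).

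NT5E, the ectoenzyme CD73 that makes adenosine outside the cell, had 17.9, 10.7 and 15 TPM in the primary line. It had 1.32, 0.472 and 1.04 TPM in Metadcarc1511.2 and 0.393, 0.145 and 0.315 TPM in Metadcarc1511.3, which was 16.9-fold (adjusted p = 0.000443) and 56.7-fold (adjusted p = 8.61e-05) lower. CDHR2, a cadherin-related protein that links the tips of microvilli, was low in the primary line as well, with 1.13, 1.68 and 1.3 TPM. It had 223 counts over the 3 primary libraries and 3 counts over those of Metadcarc1511.2, a ratio of 79.5 (95% interval of counting error 26.8 to 388), and it was 17-fold lower in Metadcarc1511.3 (adjusted p = 0.0013).

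CCDC88A, or girdin, which binds actin and takes part in cell migration, was 15.1-fold (adjusted p = 0.000204) and 13.5-fold (adjusted p = 0.000158) lower. Its libraries had 17, 9.60 and 9.20 TPM in the primary line, 0.495, 0.757 and 1.34 TPM in Metadcarc1511.2, and 0.963, 1.03 and 0.915 TPM in Metadcarc1511.3. GNAI1, an inhibitory G protein subunit, spread widely in the primary line, with 33.7, 4.28 and 12.6 TPM. All 6 metastasis line libraries were below 1 TPM, the highest at 0.963 TPM, and GNAI1 was 22.6-fold (adjusted p = 0.0042) and 218-fold (adjusted p = 0.000464) lower.

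SNAI2, or Slug, which represses epithelial genes and drives the mesenchymal state, had 27.0, 35.2 and 44.6 TPM in the primary line. It had 2.87, 7.52 and 7.11 TPM in Metadcarc1511.2 and 0.655, 3.15 and 2.04 TPM in Metadcarc1511.3. The lowest primary library was above the highest metastasis library, and SNAI2 was 6.91-fold (adjusted p = 0.0093) and 20.7-fold (adjusted p = 0.000837) lower. With passage as a covariate, the log2 fold change in Metadcarc1511.2 was -0.15 (adjusted p = 0.935), while that in Metadcarc1511.3 was -3.25 (adjusted p = 0.00128).

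LOXL3, an enzyme of the lysyl oxidase family that crosslinks collagen and elastin, had 42.6, 31.8 and 27.9 TPM in the primary line and between 11.1 and 17.7 TPM in the metastasis lines. It was 2.94-fold (adjusted p = 0.00236) and 2.40-fold (adjusted p = 0.00459) lower. CHST7, a sulfotransferase of proteoglycan side chains, had 3.94, 2.47 and 4.10 TPM in the primary line and between 0.292 and 0.595 TPM in Metadcarc1511.2 (7.90-fold lower, adjusted p = 0.00634). In Metadcarc1511.3, it had no count in any library, which against a floor of 3 counts over the line makes it at least 58.8-fold lower.

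PRXL2A, a protein of the peroxiredoxin-like family, differed little between libraries of a line, with 25.0, 22.4 and 26.7 TPM in the primary line and between 6.76 and 10.3 TPM in the metastasis lines. It was 2.72-fold (adjusted p = 0.0043) and 3.24-fold (adjusted p = 0.0012) lower.

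**Figure D2:**
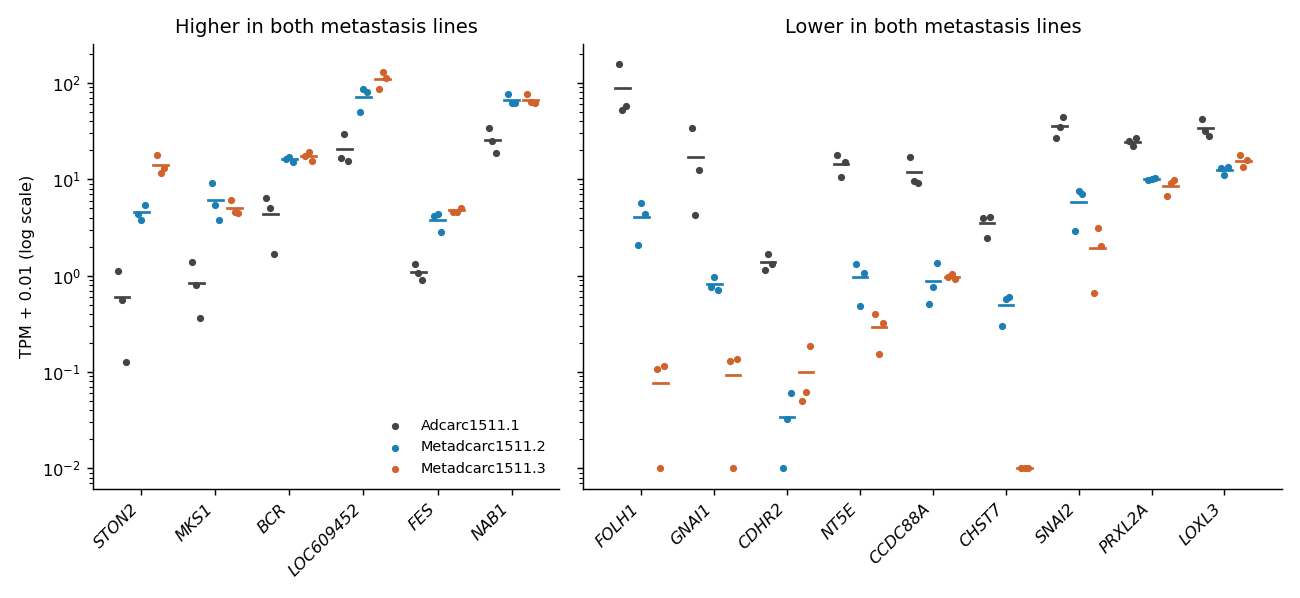
Level of 15 of the 17 shared genes with a symbol in each of the 9 libraries, as TPM + 0.01 on a log axis, with 6 genes higher in both metastasis lines on the left and 9 lower ones on the right. Points are libraries (Adcarc1511.1 grey, Metadcarc1511.2 blue, Metadcarc1511.3 orange) and short bars are means of 3 libraries, and in no gene do the points of the primary line overlap with those of a metastasis line.

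The calls of FOLH1, NT5E, CDHR2 and CCDC88A in both lines held in all 9 fits that left out 1 library, and those of the other 13 genes with a symbol held in 0 to 4 of them. Of the 17 genes, 6, 9 and 6 were still called in both lines without replicate 1, 2 or 3 of Adcarc1511.1, 6, 4 and 7 without those of Metadcarc1511.2, and 12, 10 and 9 without those of Metadcarc1511.3. With passage as a covariate, 0 of the 17 genes were called in Metadcarc1511.2 and 12 in Metadcarc1511.3. FOLH1 then had log2 fold changes of -5.08 (adjusted p = 0.0339) and -10.69 (adjusted p = 5.48e-05). In Metadcarc1511.2, MKS1 then had a log2 fold change of 0.65 (adjusted p = 0.584) and NAB1 one of 0.37 (adjusted p = 0.596). In the fits without 1 library, the log2 fold changes of FES stayed between 1.57 and 2.09, and those of SNAI2 between -4.92 and -2.43.

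A part of the shared genes was nearly absent on one side, and these passed the count filter through lines where they were higher. Of the 203 higher genes, 33 had at most 3 counts over the 3 libraries of Adcarc1511.1, and 14 of these had none. Of the 129 lower genes, 37 had at most 3 counts in Metadcarc1511.2, 38 in Metadcarc1511.3 and 25 in both. The strongest of these had no symbol. ENSCAFG00000010790 had no count in Adcarc1511.1, but 28.7, 49.9 and 39.3 TPM in Metadcarc1511.2 and 32.8, 28.6 and 26.4 TPM in Metadcarc1511.3, which was at least 584-fold and 424-fold higher. ENSCAFG00000019027 had no count in the primary line either, and between 68.7 and 118 TPM in the metastasis lines (at least 356-fold and 350-fold higher).

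Among the lower genes, ENSCAFG00000006607 had 64.2, 43.3 and 25.5 TPM in the primary line. Its 7314 counts there stood against 2 counts in each metastasis line, a ratio of 3910 (95% interval of counting error 1080 to 32300) and 4060 (1120 to 33500). ENSCAFG00000001166 had 32.5, 30.2 and 27.9 TPM in the primary line and no count in the metastasis lines, and was at least 382-fold and 396-fold lower. These 4 genes were called in both lines in all 9 fits that left out 1 library.

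Gene lists were read against all 12359 genes tested, of which 7.12% were called in at least 1 line, and nothing was read from a list with few or no calls. Of 30 listed epithelial genes, 15 had an identifier and 14 were tested. The cadherin CDH1 and the keratins KRT7, KRT8 and KRT18 had no identifier and were not examined. None of the 14 was called in both lines, and 13 were called in neither. The medians of their log2 fold changes were -0.04 and 0.01. EPCAM, an epithelial adhesion molecule, had 1190, 772 and 1260 TPM in the primary line, 700, 550 and 648 TPM in Metadcarc1511.2 and 344, 278 and 326 TPM in Metadcarc1511.3. It was 4.16-fold lower in Metadcarc1511.3 (adjusted p = 0.00188), and its log2 fold change in Metadcarc1511.2 was -1.0 ± 0.31 (adjusted p = 0.0686). The claudin CLDN7 had means of 691, 536 and 513 TPM in Adcarc1511.1, Metadcarc1511.2 and Metadcarc1511.3 (adjusted p = 0.24 and 0.14).

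Of 20 listed mesenchymal genes, 12 had an identifier and 10 were tested. SNAI1, ZEB1, TWIST1 and the mesenchymal marker VIM were not among these 12 and were not examined. Of these 10, SNAI2 was called in both lines, CDH6 was lower in Metadcarc1511.3, and 8 were called in neither (medians -0.03 and -0.35). Among 10 integrin genes, which bind cells to the matrix, none was called in both lines (medians -0.03 and -0.15). In Metadcarc1511.3, ITGA5, the fibronectin receptor subunit, was 6.00-fold higher (adjusted p = 0.00111) and ITGAV was 2.33-fold lower (adjusted p = 0.00363). Of 14 listed basement membrane genes, 8 had an identifier. The 7 tested had medians of 0.15 and 0.12, and 6 were called in neither line. Of 20 tested genes of the interstitial matrix and its enzymes, LOXL3 was lower in both lines and 17 were called in neither (medians -0.01 and -0.46). The matrix protein FBLN5 was 5.41-fold lower in Metadcarc1511.3 (adjusted p = 0.00291).

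Of 18 tested genes of JAK-STAT, RAS and PI3K signalling, 17 were called in neither line (medians 0.17 and 0.16). The Janus kinases had log2 fold changes of 0.44 (adjusted p = 0.24) and 0.53 (adjusted p = 0.12) for JAK1, 0.16 (adjusted p = 0.66) and 0.00 (adjusted p = 1) for JAK2, and -0.02 (adjusted p = 0.98) and 0.38 (adjusted p = 0.35) for TYK2. Of 11 tested genes of TGF-beta and BMP signalling, 10 were called in neither line (medians 0.17 and -0.24), and of 12 in Wnt and Hippo signalling, 11 (medians 0.32 and 0.47). None of 13 tested growth factors, cytokines and receptors was called in a line (medians 0.65 and 0.39). Likewise none of 40 genes of mitosis and the centrosome was called (medians -0.26 and -0.14). The summed level of these 40 spread widely, from 942 to 2680 TPM between libraries of Metadcarc1511.2 and from 1060 to 3100 TPM in Metadcarc1511.3. With such a spread, a 2-fold change can go uncalled. Of 14 tested patterning factors, SNAI2 was the only one called in both lines, and 12 were called in neither (medians 0.14 and 0.04). TP73, a transcription factor, was 3.1-fold lower in Metadcarc1511.2 (adjusted p = 0.00615), and its log2 fold change in Metadcarc1511.3 was -0.88 (adjusted p = 0.0581). Of 14 tested genes that brake the cell cycle or confer drug resistance, 12 were called in neither line (medians 0.34 and 0.35).

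Only 8 of 20 prostate cancer marker genes with an identifier passed the filter on low counts, and FOLH1 alone was called (medians -0.18 and 0.24). Over all 9 libraries, the kallikrein KLK2 and the progesterone receptor PGR had 0 counts. The prostate homeobox factor HOXB13 had means of 21.9, 27.1 and 48.7 TPM in Adcarc1511.1, Metadcarc1511.2 and Metadcarc1511.3 (adjusted p = 0.68 and 0.014). Of the marker lists of other cell types, 4 of 22 leukocyte, 3 of 10 endothelial and 2 of 10 fibroblast genes were tested, and none was called in both lines (medians 1.84 and 0.52, 0.15 and -0.10, and 0.64 and 4.19). The leukocyte and fibroblast medians are no measured ratios. Of the few genes behind them, PLEK and COL3A1 had 0 counts over the primary libraries and CD74 had 1.

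**Figure D3:**
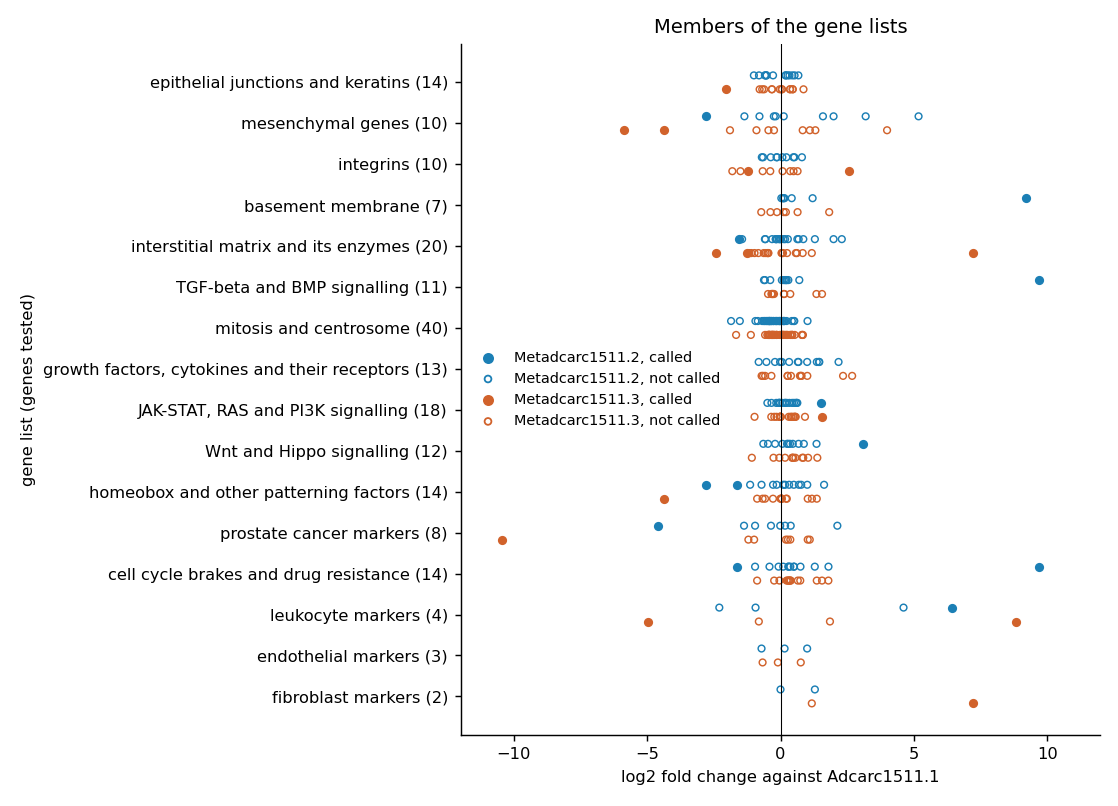
Log2 fold change against Adcarc1511.1 of the tested members of 16 gene lists, with Metadcarc1511.2 in blue above and Metadcarc1511.3 in orange below in each row, filled where called. Open circles prevail, as in all genes tested, of which 7.12% were called in at least 1 line, and SNAI2, LOXL3 and FOLH1 are among the members called in both lines.

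Genes called in 1 line only included several with a different level in both metastasis lines. GDF15, a stress-induced cytokine of the TGF-beta family, had 46.0, 51.3 and 31.4 TPM in Metadcarc1511.2, but at most 0.102 TPM in the primary line and at most 0.318 TPM in Metadcarc1511.3. CD74, the invariant chain of MHC class II, had 4.71, 2.98 and 6.24 TPM in Metadcarc1511.2, and at most 0.44 TPM in the others. LAMA4, a laminin chain, had 1.60, 1.21 and 1.22 TPM in Metadcarc1511.2 and 0 in the primary line. The mesenchymal cadherin CDH6 had 85.8, 79.0 and 32.9 TPM in the primary line and 29.4, 36.6 and 56.1 TPM in Metadcarc1511.2, which overlapped, but 0.970, 0.728 and 1.94 TPM in Metadcarc1511.3. PLEK, known from platelets and leukocytes, had 1.53, 4.14 and 2.65 TPM in Metadcarc1511.3 and at most 0.19 TPM in the others. ITGA5 had 5.47, 9.64 and 4.78 TPM in Metadcarc1511.3, and at most 1.53 TPM in the others.

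Of the remaining list members called in 1 line, WNT11, ITGB2 and COL3A1 were low in expression. WNT11, a Wnt ligand, was 8.44-fold higher in Metadcarc1511.2 (adjusted p = 0.00858), with at most 3.08 TPM. The leukocyte integrin ITGB2 was 31.1-fold lower in Metadcarc1511.3 (adjusted p = 0.00334), with at most 2.85 TPM in the primary line. COL3A1, a fibroblast collagen, had 58 counts over the 3 libraries of Metadcarc1511.3 and 0 in both other lines. The call held in all 9 fits without 1 library for GDF15, LAMA4, CDH6, PLEK and ITGA5, in 7 for EPCAM, in 6 for CD74 and ITGAV, in 5 for FBLN5 and ITGB2, in 3 for COL3A1, and in 1 for WNT11 and TP73. With passage as a covariate, the calls of GDF15, CDH6, PLEK, ITGA5, EPCAM and FBLN5 held. Those of LAMA4 (adjusted p = 0.0236), CD74 (0.0552), ITGAV (0.0256), COL3A1 (0.0242), ITGB2 (0.0103), WNT11 (0.324) and TP73 (0.463) were lost.

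The levels of the shared genes in the other cell lines of the series were not used to choose them. These were the PAC lines Adcarc0846 and Adcarc1508 and the lines TCC0840, TCC1506 and TCC1509 of transitional cell carcinoma, all of other dogs. Of the 203 higher genes, 97 were lowest in Adcarc1511.1 among the 8 lines, and 55 were higher in both metastasis lines than in the other 6 lines. Of the 129 lower genes, 64 were highest in Adcarc1511.1 among the 8 lines, and 29 were lower in both metastasis lines than in the other 6. On the scale of log2(TPM + 0.1), Adcarc1508 was nearer to the metastasis lines than to Adcarc1511.1 in 65.5% of the higher and 64.3% of the lower genes. For Adcarc0846, it was 49.3% and 60.5%. The shares were 57.1% and 65.9% for TCC0840, 56.2% and 52.7% for TCC1506, and 56.2% and 66.7% for TCC1509. These counts and shares are a description, since the primary line alone enters every difference. The choice of genes puts Adcarc1511.1 below or above both metastasis lines, which favours its lowest or highest rank among the 8 lines. Shares over all genes tested were not computed.

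NAB1 was between 23.8 and 47.9 TPM on average in each of the other 5 lines, below both metastasis lines. LOXL3 was between 1.34 and 6.19 TPM in them, so that both metastasis lines, though lower than Adcarc1511.1, were above all 5. FOLH1 was highest in Adcarc1511.1, followed by 27.7 TPM in TCC0840 and 27.3 TPM in TCC1506, and was 3.90 TPM in Adcarc0846 and 2.34 TPM in Adcarc1508. SNAI2 ranged from 0.793 TPM in Adcarc0846 to 92.9 TPM in TCC1509.

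In the tissues Ln4.2 and Ln4.3, from which the metastasis lines had been grown, 192 and 181 of the 203 higher genes had at least 1 TPM, and so did 110 and 97 of the 129 lower genes. Of the 25 genes nearly absent from both metastasis lines, 18 had at least 1 TPM in Ln4.2 and 11 in Ln4.3. The share of all genes tested at this level was not computed, so these counts are not read as particular to the shared genes. FOLH1 had 35.4 TPM in Ln4.2 and 1.55 TPM in Ln4.3, and SNAI2 had 22.6 and 7.99 TPM. On the scale of log2(TPM + 0.1), Ln4.2 was nearer to the metastasis lines in 78.3% of the higher but 29.5% of the lower genes. For Ln4.3, these shares were 68.5% and 39.5%, and shares over all genes tested were not computed. Both tissues held the leukocyte and fibroblast markers at the summed levels given above, and the part of these cells in the tissue levels was not tested. Tissue of the primary tumor was not analysed here.

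**Figure D4:**
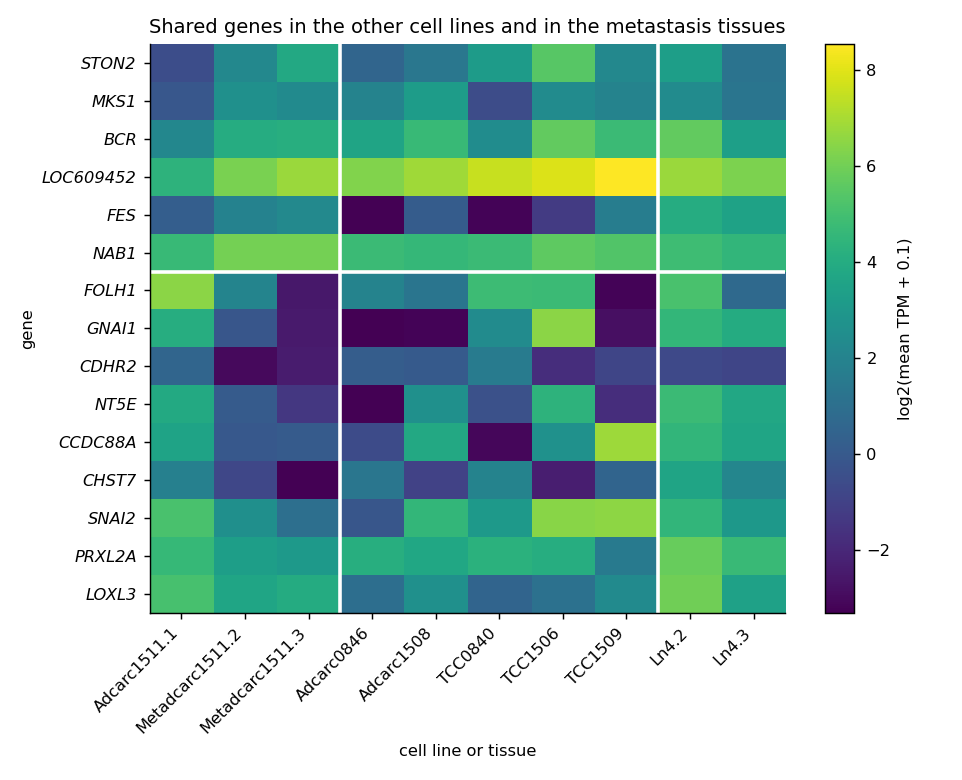
Mean level of 15 of the 17 shared genes with a symbol, as log2(mean TPM + 0.1), in the 3 lines compared, in the other 5 cell lines and in the tissues Ln4.2 and Ln4.3. White lines separate these 3 sets of samples and the higher from the lower genes, and NAB1 is highest in both metastasis lines among the 8 cell lines.

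The count of shared genes varied with the libraries used. In each of 19 alternatives, all 332 genes kept their sign in both lines. The kept sign is no independent support, since the genes were chosen on these same libraries. In them, both metastasis lines lay entirely on 1 side of the primary line. Of the 332 genes, 119 (76 higher and 43 lower) were called in both lines in all 9 fits that left out 1 library. Shared higher genes fell from 203 to 113, 96 and 102 without replicate 1, 2 or 3 of Adcarc1511.1, to 101 without replicate 2 of Metadcarc1511.2 and to 133 without replicate 2 of Metadcarc1511.3. Shared lower genes fell from 129 to 69 and 70 without replicate 1 or 3 of Adcarc1511.1, to 78, 48 and 66 without replicate 1, 2 or 3 of Metadcarc1511.2, and to 77 and 80 without replicate 2 or 3 of Metadcarc1511.3.

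**Figure D5:**
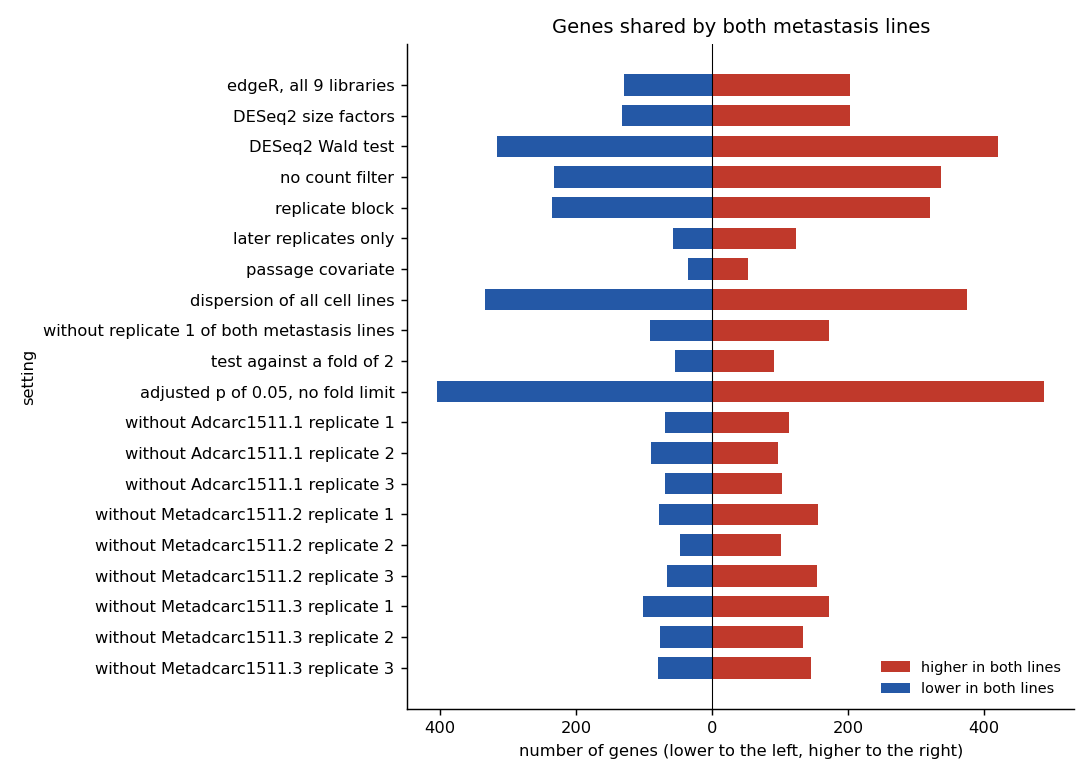
Number of genes higher (right, red) and lower (left, blue) in both metastasis lines in the analysis of all 9 libraries by edgeR (top) and in 19 alternatives. Higher genes range from 52 with passage as a covariate to 488 at an adjusted p of 0.05 without a fold limit, and lower genes from 36 to 404 in these same settings.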

How the data were processed

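RNA sequencing data of 9 cell line libraries, each sequenced on 4 lanes with single reads of 75 bases, were used. Per the labels and the study's methods, the authors trimmed reads with Trimmomatic 0.36, aligned them to CanFam 3.1 with STAR 2.5.3 and quantified Ensembl genes with RSEM 1.3.0. The authors deposited expected counts, not normalized and not always whole (17.4% of the values above 0 were not), and TPM, which RSEM scales to transcript length and library size, for each lane. Reads assigned by RSEM to near-identical genes may be divided between them, and the library kit, as the labels name it, does not mark strand, so overlapping genes on opposite strands cannot be told apart.

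Expected counts were summed over lanes and rounded, and TPM were averaged over lanes. Genes with at least 10 counts in all libraries of a line were tested by edgeR 4.0.16 (TMM, quasi-likelihood test) in R 4.3.3, with the 3 lines as groups, and p-values were adjusted over all 12359 genes by Benjamini-Hochberg. A gene was called where the adjusted p did not exceed 0.01 and the change was 2-fold or more. A shared gene was called in the same direction in both metastasis lines. DESeq2 1.42.0 was an alternative, as were other filters, a replicate block, passage, thresholds and each library left out. By their deviations, replicate numbers paired both metastasis lines with each other, but not with the primary line. Where a line had 0 counts, folds were set against a floor of 3 counts over its 3 libraries, and where it had 1 to 3 counts, an exact 95% binomial interval of the ratio is given. Floors and intervals cover counting error only. Python 3.11.15, pandas 2.3.3 and matplotlib 3.10.9 were used for values and figures.

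The files pair no symbols with the Ensembl identifiers. The study's tables named 1120 of 32183 identifiers and 891 of the genes tested, and these were in part chosen by the study on these samples. Identifiers without a symbol were limited to 2 higher and 2 lower genes. Shared genes with a symbol (at most 12 in each direction) and called members of the gene lists are named; a few of them are not reported here. The members and lists were chosen with earlier results of these data known. For Adcarc0846, shown for comparison only, 3 lanes whose labels name other lines were left out. No genome of the files' build was used here, so positions are not given.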

Additional observations from a re-analysis of the deposited data

Results flagged for a closer look

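Of the genes named, 7 were called in the direct test of Metadcarc1511.3 against Metadcarc1511.2, which is the difference of their changes against the shared primary line. The difference on the log2 scale was -5.88 (adjusted p = 0.00211) for FOLH1, which was lower in both lines. It was -8.13 (adjusted p = 0.000121) for GDF15, -7.40 (adjusted p = 0.00118) for LAMA4 and -4.56 (adjusted p = 0.00939) for CD74, which were higher in Metadcarc1511.2. For CDH6, lower in Metadcarc1511.3, the difference was -5.08 (adjusted p = 0.000241). It was 4.21 (adjusted p = 0.00928) for PLEK and 2.52 (adjusted p = 0.0044) for ITGA5, which were higher in Metadcarc1511.3.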

How the results depend on the processing

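The number of shared genes depended on the processing. Their direction stayed the same, but they were chosen on these same libraries, so this is no independent support. Counts are given in the order higher in both lines, lower in both lines, opposite directions, mean of both lines against the primary line, Metadcarc1511.2, Metadcarc1511.3, and shared genes that also differ between the metastasis lines, where they moved by more than 1.5 times from 203, 129, 4, 845, 443, 773 and 17. They were 420, 317, 11, 1426, 1004, 1473 and 62 with DESeq2's own test, 336, 233, 7, 1374, 780, 1240 and 43 without a filter on counts (20876 genes tested), and 374, 334, 11, 1391, 946, 1488 and 42 with the dispersion of all cell lines. With passage as a covariate they were 52, 36, 0, 212, 110, 503 and 10, and 65 of the 332 shared genes were called again. A test against a fold of 2 gave 91, 55, 2, 290, 188, 322 and 7, and an adjusted p of 0.05 without a fold limit gave 488, 404, 16, 2229, 1126, 2000 and 50. With replicates 2 and 3 only, they were 123, 57, 501, 254, 426 and 7 (leaving out opposite directions, with 3). Without replicate 1 of both metastasis lines, chosen after seeing the data, 11 shared genes also differed between the metastasis lines. With DESeq2's size factors, no count moved by 1.5 times.

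Leaving out 1 library gave 96 to 171 higher and 48 to 102 lower shared genes, 2 to 4 in opposite directions, 432 to 796 for the mean of both lines, 181 to 459 for Metadcarc1511.2, 396 to 893 for Metadcarc1511.3, and 7 to 15 that also differed between the metastasis lines. Fewer libraries leave fewer degrees of freedom by construction. For all other settings the cause was not tested.

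Replicate numbers are the same in all lines. Deviations of same-numbered libraries correlated at 0.818, 0.693 and 0.705 between both metastasis lines, but at 0.222, 0.2 and -0.086 between Adcarc1511.1 and Metadcarc1511.2, and at 0.258, 0.188 and 0.022 between Adcarc1511.1 and Metadcarc1511.3, so the numbers were taken to pair both metastasis lines with each other, but not the primary line with them. A replicate block was fitted over all 9 libraries, so it paired the primary line with the metastasis lines as well. This block gave 320 higher and 235 lower shared genes, 735 calls in Metadcarc1511.2 and 1206 in Metadcarc1511.3, and 323 of the 332 genes were called again. Between both metastasis lines it gave 160 genes against 121, and the call of no named gene changed there.

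Of the named genes, 3 values that had not been called turned their sign, namely GDF15 and CD74 in Metadcarc1511.3 (both -0.09 with replicates 2 and 3 only) and ITGA5 in Metadcarc1511.2 (-0.20 without its replicate 2, within a range of -0.20 to 0.28 over the fits without 1 library). In 239 other instances a call was lost with the same direction. Depth limits genes with few counts, such as CDHR2, CHST7 and COL3A1, and floors of 3 counts bound their folds.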

Other observations

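Among the gene lists, 6 members had an adjusted p of at most 0.05 in both metastasis lines in the same direction without being called in both. The apoptosis inhibitor BCL2 had log2 fold changes of 1.80 (adjusted p = 0.0434) and 1.80 (adjusted p = 0.0297), and the Polycomb protein BMI1 had 1.29 (adjusted p = 0.0418) and 1.36 (adjusted p = 0.0223). The actin crosslinker FLNC had 5.18 (adjusted p = 0.0127) and 4.00 (adjusted p = 0.0221), the homeobox factor HOXB7 1.63 (adjusted p = 0.0192) and 1.36 (adjusted p = 0.0283), and the interleukin receptor IL22RA1 2.18 (adjusted p = 0.0438) and 2.69 (adjusted p = 0.0122). GMNN, or geminin, which holds back the licensing of DNA replication, had -1.85 (adjusted p = 0.0466) and -1.67 (adjusted p = 0.0469).

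The receptor subunit IL20RB, chosen after its values were seen, did not pass the filter on low counts. It had 1096, 41 and 1 counts in replicates 1, 2 and 3 of Metadcarc1511.2 and 971, 38 and 8 counts in those of Metadcarc1511.3, while it had 18, 4 and 3 counts in those of Adcarc1511.1. Replicate 1 was therefore the highest library in all 3 lines, at passages 88, 68 and 79 of Adcarc1511.1, Metadcarc1511.2 and Metadcarc1511.3. A wide spread was not particular to these lines. The SD of IL20RB also exceeded its mean in Adcarc1508 (4.408 ± 7.361 TPM) and TCC1509 (2.386 ± 3.535 TPM), but not in Adcarc0846, TCC0840 or TCC1506. BGN, a matrix proteoglycan that also did not pass the filter and was chosen in the same way, had 1 count over the 3 libraries of Adcarc1511.1, against 38 in Metadcarc1511.2 (ratio 35.5, 95% interval of counting error 6.0 to 1440) and 21 in Metadcarc1511.3 (ratio 18.9, 3.04 to 783).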
